A study of Danio rerio with 12 samples.

Results

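The Hox genes of the zebrafish Hox clusters were examined in the whole brain of adult AB wild-type fish after a social encounter. A probe set, the group of short probes that reads 1 transcript on an Affymetrix array, was taken as a member when the platform annotation gave it a single gene symbol made of hox, a cluster letter from a to d and a number. This rule found 59 probe sets for 42 genes, among 15502 probe sets tested and 8793 genes with a probe set of 1 symbol. For each of the 13 Hox genes with several probe sets the one with the highest mean log2 intensity was used, and the other 29 genes had 1. The zebrafish RefSeq gene table lists 49 protein-coding Hox genes, of which hoxa13a, hoxb13a, hoxb1b, hoxc10a, hoxc12a, hoxc13b and hoxd12a were not analysed here. All 42 members were found in that table under the same symbol.

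The 4 groups were winners of a fight with a real opponent, losers of such a fight, mirror fighters, which fought their own reflection, and isolated fish, which met no opponent. Each group had 3 arrays. All fish were wild type, had been kept alone for 5 days beforehand, and gave their brains 30 min after the manipulation began. Whether the RNA on an array came from a single fish or several is not given in the labels. The p-values therefore reflect the spread among these arrays, which may be technical.

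Hox genes encode homeodomain transcription factors that give cells their position along the head-to-tail axis. Within a cluster, genes at the 3′ end (low paralog numbers) are switched on earlier and further forward than genes at the 5′ end (high paralog numbers). In the embryonic nervous system the most forward Hox limits lie in the hindbrain, the middle paralogs begin near the border of hindbrain and spinal cord, and the highest paralogs lie in the caudal spinal cord and in fins and limbs. Forebrain and midbrain are formed without Hox expression, so in a dissected brain Hox transcripts are known mainly from the hindbrain and from any spinal cord attached to it. They work with Pbx and Meis cofactors and are induced by retinoic acid.

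The median intensity of all probe sets lay between 94.1 and 104 per array, or 6.56 to 6.71 on the log2 scale. The number of arrays limits the precision. A probe set is called lit when it lay above its array's median on all 12 arrays, and dim when its mean log2 intensity was among the lowest 25% of probe sets, under 5.02, which is an intensity of 32.4. Marker lists of tissues were read by the same rule, beside 42.0% of all probe sets lit. Of 10 cerebellum genes 7 were lit, as were 9 of 23 forebrain and 6 of 17 midbrain and boundary genes, against 0 of 14 retina and lens genes and 0 of 5 pituitary genes. Of the hindbrain and spinal neuron list 3 of 12 genes were lit, and of blood cell lists 5 of 14 erythroid and 2 of 14 leukocyte genes. Of skin and cartilage 2 of 16 were lit, of skeletal muscle 2 of 14, and of the genes a brain should lack 2 of 24. Among these lists only that of the cerebellum exceeded the share of all probe sets. The 14 bacterial hybridization controls, added to every array, averaged 10.48 ± 0.25 in winners, 10.35 ± 0.32 in losers, 9.40 ± 0.10 in mirror fighters and 9.37 ± 0.12 in isolated fish (mean log2 ± SD, n = 3 each). Winner and loser arrays were therefore brighter in these controls than all mirror and isolated arrays.

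No Hox gene was lit on all 12 arrays, whereas 42.0% of all probe sets were. Only 5 of the 42 were above the array median on any array. The paralog 5 gene hoxb5a was above it on 7 arrays and hoxb3a on 6, while hoxc5a was above it on 2 and hoxb6a and hoxb5b on 1 each. The median Hox gene had a log2 intensity of 4.61, an intensity of 24.5, which placed it at percentile 19.1 of all probe sets. Dim probe sets made up 27 of the 42 (64.3%), against 19.1% of all genes by their brightest probe set. Brightness also depends on the probes themselves, so these ranks describe signals and do not order amounts of RNA between genes.

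A signal low on the array can be background. Sequences that wild-type zebrafish should lack, read by 25 control probe sets for reporters, bacterial genes and tags, had a median log2 intensity of 3.60. The brightest of them, for EGFP, averaged 6.02, with intensities of 44.9 to 98.7, and the next reached 5.31. Only hoxb5a (6.76), hoxb3a (6.51), hoxb5b (6.25) and hoxb6a (6.20) averaged above the EGFP probe set, and 11 Hox genes averaged above the next brightest control. The 24 genes of pancreas, gut and ovary that a brain should lack had a median of 4.57 and a highest value of 8.11, which 0 Hox genes exceeded. That value was of fabp2, which was lit on all 12 arrays, as was dnd1 (6.95). The next brightest of the list, apoa4a, averaged 6.13, below hoxb5a, hoxb3a, hoxb5b and hoxb6a.

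**Figure D1:**
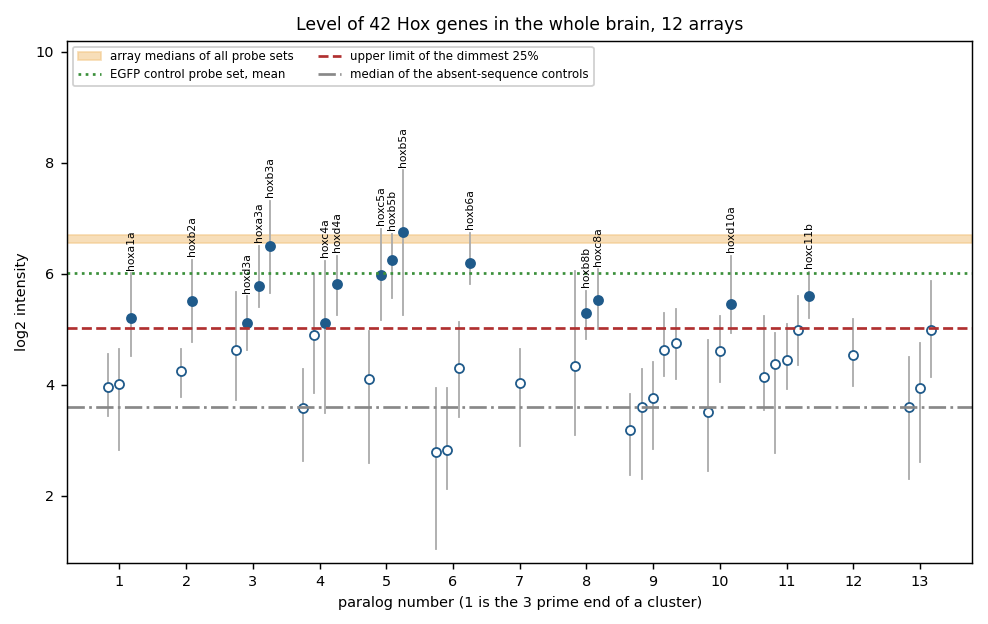
Mean log2 intensity over 12 arrays (points) with the lowest and highest array (lines) for 42 Hox genes, placed by paralog number. Filled points are the 15 genes above the dimmest 25%, and 11 of these have paralog numbers 1 to 6.

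Signals above the dim limit were more frequent among the low paralog numbers. Of the 21 genes of paralogs 1 to 6, 11 were not dim, against 4 of the 21 genes of paralogs 7 to 13. Median log2 intensity was 5.11 in the first set and 4.45 in the second. Paralogs 3 to 6 held 9 of the 15 genes that were not dim. Paralog 5, which in vertebrates marks the junction of hindbrain and spinal cord, had the highest median of any paralog number at 6.11, and 3 of its 4 genes were not dim. The medians did not follow the paralog order step by step, with 4.01 for paralog 1, 3.57 for paralog 6, the lowest, and 5.30 for paralog 8. By cluster, the genes above the dim limit were 2 of 3 in bb, 3 of 6 in da and 4 of 10 in ba. They were 2 of 6 in aa, 3 of 9 in ca, 1 of 3 in cb and 0 of 5 in ab. Paralogs 9, 12 and 13 had 0 genes above the dim limit among 5, 1 and 3.

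Just above the dim limit were hoxc4a at 5.11 and hoxd3a at 5.12, and just below it were hoxc13a at 4.997 and hoxd11a at 4.99. Above the limit on every array by their chosen probe sets were 9 genes, namely hoxa3a, hoxb3a, hoxd4a, hoxb5a, hoxb5b, hoxc5a, hoxb6a, hoxc8a and hoxc11b. The further probe sets of hoxc8a were above it on 6 and 4 arrays, that of hoxd4a on 1 and that of hoxa3a on 0.

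Paralog 3 genes pattern the posterior hindbrain segments. hoxb3a had intensities of 101, 50.2 and 160 in winners, 83.3, 59.0 and 114 in losers, 109, 129 and 116 in mirror fighters, and 92.6, 65.4 and 70.2 in isolated fish. The 3 mirror arrays were close together and above all 3 isolated arrays, while winners spanned both. hoxa3a had 90.8, 47.3 and 49.8 in winners, 79.4, 74.1 and 52.2 in losers, 56.2, 42.2 and 46.3 in mirror fighters, and 51.5, 50.0 and 42.8 in isolated fish. Here losers lay just above isolated fish without overlap, and 1 winner array stood apart from the other 2. hoxd4a, a retinoic acid responsive gene of the posterior hindbrain, had 74.9, 50.3 and 66.5 in winners, 80.0, 71.8 and 51.6 in losers, 56.7, 55.8 and 54.7 in mirror fighters, and 47.7, 47.1 and 38.5 in isolated fish. All 9 arrays of fish that fought were above the 3 isolated arrays for the chosen probe set of hoxd4a. The patterns of hoxa3a and hoxd4a rest on the chosen probe sets, with which their second probe sets correlated at -0.74 and -0.55.

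Of the paralog 5 genes, hoxb5a had 81.9, 38.5 and 183 in winners, 115, 65.2 and 126 in losers, 227, 153 and 233 in mirror fighters, and 160.1, 51.2 and 72.9 in isolated fish. The lowest array was winner 2 and the highest mirror fighter 3, 6.04-fold apart, and within a group winners alone spanned most of that range. hoxc5a had 53.0, 36.1 and 78.8 in winners, 61.7, 48.8 and 71.4 in losers, 112, 77.1 and 107 in mirror fighters, and 82.6, 36.2 and 44.7 in isolated fish. hoxb5b, a retinoic acid target in the zebrafish forelimb field, had 79.5, 57.1 and 94.8 in winners, 76.0, 64.0 and 86.7 in losers, 98.3, 80.5 and 105 in mirror fighters, and 77.4, 47.3 and 65.5 in isolated fish. In all 3 genes mirror fighters had the highest mean, and only for hoxb5b did they lie above every isolated array.

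The other genes above the limit on all arrays came from paralogs 6, 8 and 11. hoxb6a had 107, 56.5 and 87.9 in winners, 71.3, 86.2 and 63.4 in losers, 85.4, 81.6 and 76.4 in mirror fighters, and 66.4, 59.7 and 56.2 in isolated fish. hoxc8a, a trunk spinal cord gene in vertebrates, had 65.7, 40.0 and 39.1 in winners, 67.8, 59.7 and 41.2 in losers, 43.0, 45.0 and 50.5 in mirror fighters, and 35.0, 32.3 and 46.5 in isolated fish. Winners and losers overlapped isolated fish in both genes. hoxc11b, from the 5′ part of its cluster, had 60.5, 46.7 and 46.4 in winners, 60.5, 65.5 and 37.1 in losers, 46.4, 43.3 and 45.3 in mirror fighters, and 43.9, 48.6 and 48.1 in isolated fish, with all groups overlapping.

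**Figure D2:**
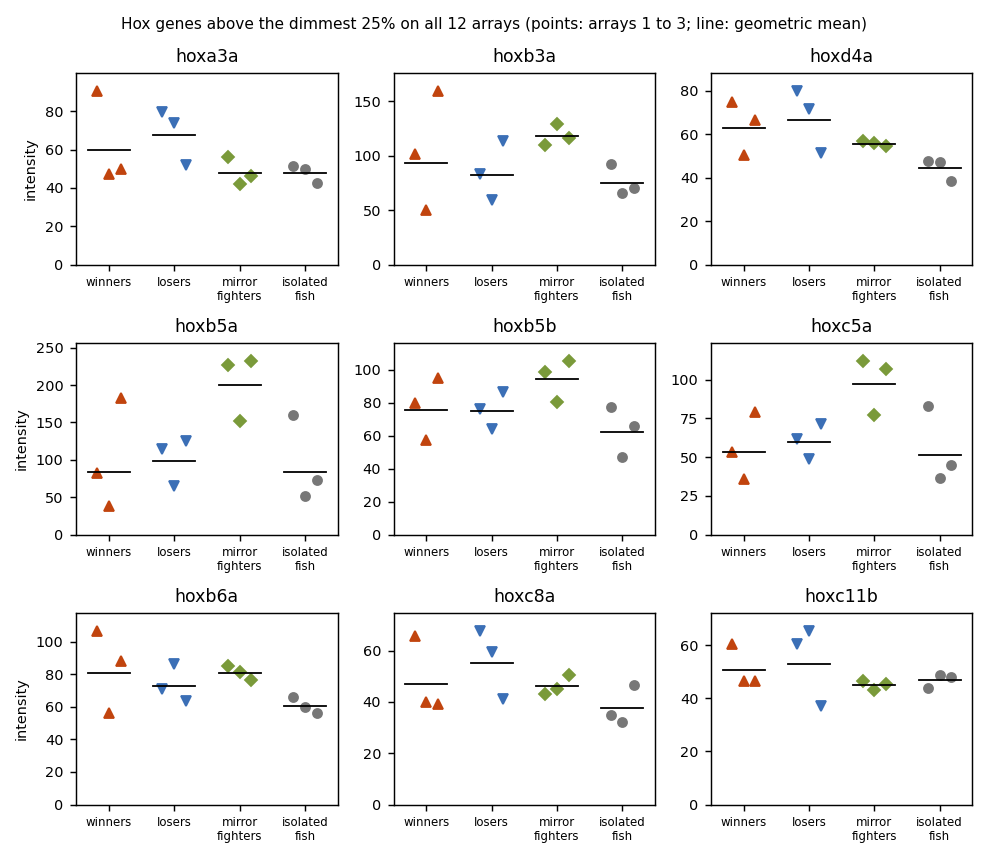
Intensity on each array (points, arrays 1 to 3 from left to right) and geometric mean (line) of the 9 Hox genes above the dimmest 25% on all 12 arrays. For hoxb5a the 3 mirror fighter arrays lie between 153 and 233, while winners reach from 38.5 to 183.

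The remaining 33 genes fell below the limit on at least 1 array. The dimmest were hoxc6a, with a mean log2 intensity of 2.79, and hoxc6b with 2.83. None of the 42 reached the floor of the files, an intensity of 1, on any array. Of the 5 forward-most genes, those of paralogs 1 and 2, hoxb2a (5.51) and hoxa1a (5.20) were not dim. The rest of these were dim. hoxb1a, which in zebrafish specifies a hindbrain segment and its facial motor neurons, had a mean of 4.01, and hoxc1a had 3.96. hoxa2b, known for patterning the second pharyngeal arch, had 4.24.

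In several places the probe sets themselves set a limit. 8 genes had an A and an S probe set from the same sequence cluster, letters that mark opposite orientations, and the A probe set was the brighter for 5 of these and the S for 3. The chosen probe set was an A for 7 genes, hoxb7a, hoxb8b, hoxb9a, hoxc8a, hoxc11a, hoxc13a and hoxd11a. Which orientation reads the messenger was not tested. Second probe sets often did not move with the first. That of hoxa3a correlated at -0.74 with the chosen one over the 12 arrays, and that of hoxd4a at -0.55, while for hoxb2a the value was 0.62. Of the further 2 probe sets of hoxc8a, 1 had 0.71 and the other 0.053. In the RefSeq table the span of hoxb3a encloses hoxb4a, hoxb5a and hoxb6a, that of hoxa3a encloses hoxa4a and hoxa5a, that of hoxd3a encloses hoxd4a, and that of hoxc3a encloses hoxc4a, hoxc5a, hoxc6a, hoxc8a and hoxc9a. Whether their probe sets read shared transcripts was not tested.

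The question for the group comparisons was whether the social encounter went with a change of any Hox gene. No Hox gene passed in any comparison. All probe sets were modelled in limma with the 4 group means, and a call needed a Benjamini-Hochberg adjusted p under 0.05. For any difference among the 4 groups, 0 of 42 Hox genes were called, against 0.277% of all probe sets, and 5 Hox genes (11.9%) had an unadjusted p under 0.05, against 18.6% of all. Against isolated fish the called shares of all probe sets were 0.245% for winners, 0.568% for losers and 0% for mirror fighters.

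Mirror fighters against isolated fish was the comparison in which most Hox genes leaned one way. The Hox median difference was 0.29 on the log2 scale, with 34 of 42 above 0, against a median of 0.00 and 50.8% above 0 over all probe sets. Unadjusted p was under 0.05 for 10 Hox genes (23.8%) against 3.83% of all probe sets, 9 higher and hoxd10a lower in mirror fighters. Every mirror array was above every isolated array for 11 Hox genes (26.2%), against 4.94% of all probe sets. These 11 were hoxb2a, hoxb3a, hoxa4a, hoxb4a, hoxc4a, hoxd4a, hoxb5b, hoxb6a, hoxa9b, hoxb9a and hoxa11a. Every mirror array was below every isolated array for 2, hoxa2b and hoxd10a, against 5.78% of all probe sets. The smallest adjusted p among the Hox genes was 0.717 in limma, so none of these differences passed once p was adjusted over all probe sets. Hox genes varied together from array to array, so these are not 42 separate counts.

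Among the brighter genes of that comparison, the log2 difference of mirror fighters minus isolated fish was 1.25 ± 0.55 for hoxb5a, 0.93 ± 0.34 for hoxc5a, 0.60 ± 0.23 for hoxb5b and 0.65 ± 0.37 for hoxb3a (± SE). Each had an adjusted p rounding to 1 in limma. The 15 Hox genes that were not dim had a median difference of 0.33 and the 27 dim ones 0.22. The genes that a brain should lack had a median difference of 0.12 in the same comparison, and all dim probe sets 0.01. The skin and cartilage list had a median of 0.25 in it, with 11 of 16 above 0, and the hindbrain and spinal list 0.19, with 8 of 12 above 0. Summed skin and cartilage intensity lay between 1251 and 1532 in winners, 1202 and 1959 in losers, 1912 and 5432 in mirror fighters, and 1546 and 2705 in isolated fish. The highest sum was on mirror fighter array 3, and the part of these cells in the result was not tested. The Hox median was 0.26 without that array and 0.19 without mirror fighter array 1.

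Winners and losers also leaned above isolated fish. Winners minus isolated fish had a Hox median of 0.27 with 30 of 42 above 0, and losers minus isolated fish 0.25 with 32 of 42 above 0. The winner median was 0.07 without winner array 1. Unadjusted p was under 0.05 for 8 Hox genes in each, which is 19.0%, against 19.6% and 21.2% of all probe sets. Those shares are near the background. Winners were above isolated fish without overlap for 7 Hox genes, hoxa1a, hoxb1a, hoxd3a, hoxd4a, hoxa11a, hoxa11b and hoxd11a, against 10.6% of all probe sets, and below them for hoxd10a, against 13.2%. Losers were above isolated fish for 6, hoxa1a, hoxb1a, hoxa3a, hoxd4a, hoxb7a and hoxd11a, against 10.8%, and below them for hoxa5a and hoxd10a, against 15.3%. Beside these medians, the brain-absent genes had 0.24 in winners minus isolated fish and 0.26 in losers minus isolated fish, about as much as the Hox genes. When the level of the hybridization controls entered the model, a setting chosen after the data were seen, the Hox medians turned to -0.17 in winners and -0.20 in losers, while that of mirror fighters was 0.26. Every winner and loser array was brighter in these controls than all isolated arrays, so their level can hardly be parted from these groups. No conclusion is drawn from the turned signs. The 3 comparisons share the isolated arrays.

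**Figure D3:**
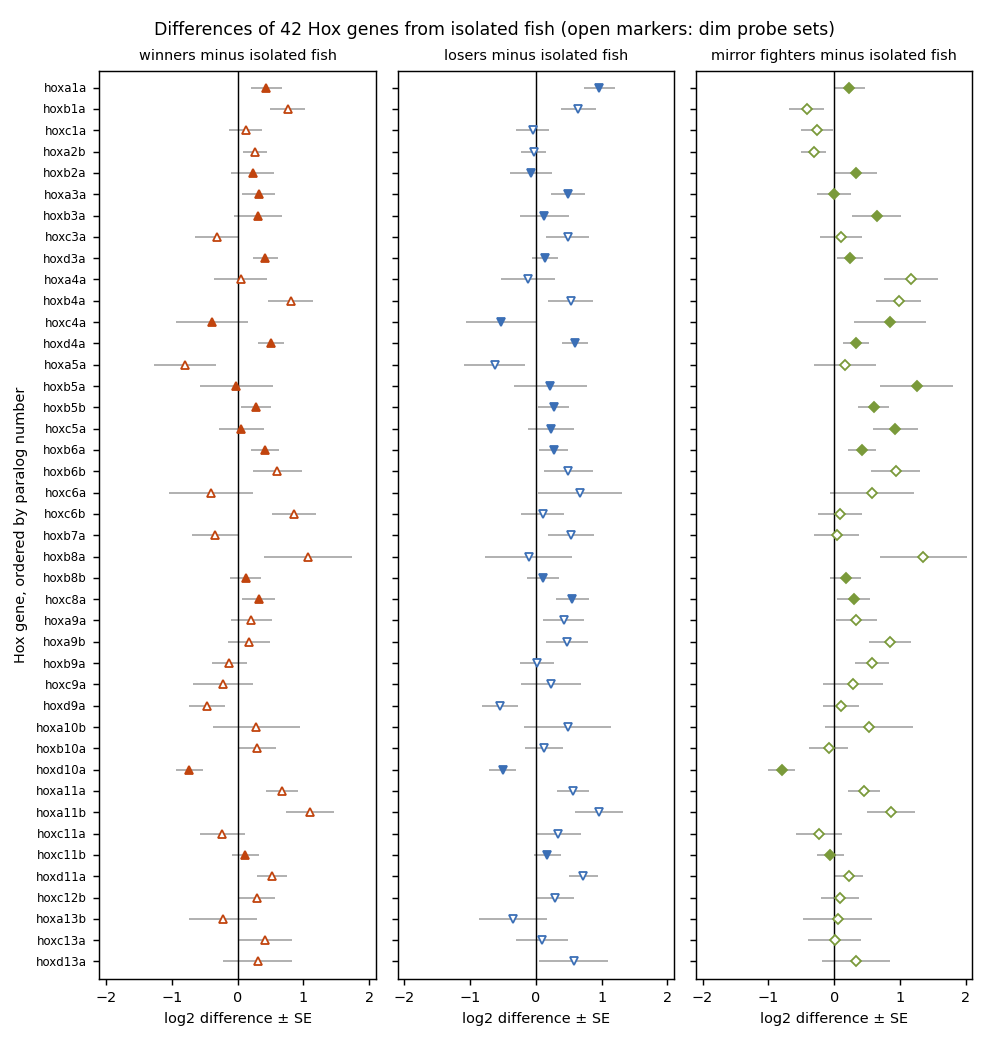
Log2 difference of winners, losers and mirror fighters from isolated fish (± SE, n = 3 arrays per group) for 42 Hox genes in order of paralog number, with open markers for dim probe sets. In mirror fighters 34 of the 42 lie above 0, and hoxd10a lies below 0 in all 3 panels.

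The 5 Hox genes with the smallest p for any difference among the groups were hoxb1a, hoxd10a, hoxa1a, hoxa4a and hoxd11a, with adjusted p of 0.125, 0.160, 0.169, 0.226 and 0.237 in limma. hoxb1a had intensities of 24.8, 21.6 and 22.6 in winners, 25.04, 19.0 and 20.1 in losers, 11.5, 12.9 and 7.07 in mirror fighters, and 18.4, 9.63 and 13.99 in isolated fish. Winner and loser arrays were above all mirror and isolated arrays. The log2 difference was 1.18 ± 0.27 for winners minus mirror fighters (adjusted p = 0.138 in limma) and 1.06 ± 0.27 for losers minus mirror fighters (adjusted p = 0.129). hoxb1a is a dim probe set. The hybridization controls were likewise higher on all winner and loser arrays than on all mirror and isolated arrays, and their part in the result was not tested.

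hoxd10a, a posterior Hox gene linked to fins and the caudal spinal cord, was the exception in direction. It had 39.2, 30.5 and 44.7 in winners, 42.7, 38.6 and 51.7 in losers, 31.8, 37.8 and 38.5 in mirror fighters, and 80.2, 53.2 and 57.2 in isolated fish. All 9 arrays of the other groups lay below the 3 isolated arrays. The log2 difference from isolated fish was -0.73 ± 0.20 in winners (adjusted p = 0.130 in limma), -0.51 ± 0.20 in losers (adjusted p = 0.190) and -0.80 ± 0.20 in mirror fighters (adjusted p = 0.717). The 3 differences share the isolated arrays, of which array 1 was the brightest.

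hoxa1a, an early gene of the embryonic hindbrain, was highest in losers. It had 41.0, 42.4 and 30.5 in winners, 52.4, 64.6 and 46.9 in losers, 44.9, 22.8 and 33.6 in mirror fighters, and 26.4, 28.5 and 28.6 in isolated fish. The 3 loser arrays were above the arrays of every other group. The log2 difference of losers minus isolated fish, 0.96 ± 0.24, had the smallest adjusted p of any Hox gene in any comparison, 0.0872 in limma.

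hoxa4a followed the paralog 5 genes. Its intensities were 23.0, 15.6 and 46.0 in winners, 21.1, 21.5 and 25.8 in losers, 55.6, 63.7 and 47.9 in mirror fighters, and 39.6, 14.5 and 26.0 in isolated fish. Mirror fighters lay above all 9 other arrays, by a log2 difference of 1.17 ± 0.41 from isolated fish (adjusted p rounding to 1 in limma). hoxd11a, a fin and posterior trunk gene, had 34.8, 35.8 and 35.4 in winners, 48.7, 43.1 and 31.6 in losers, 30.9, 21.5 and 35.4 in mirror fighters, and 24.4, 20.5 and 29.7 in isolated fish. Winners and losers lay above isolated fish without overlap for hoxd11a, as they did for the hybridization controls.

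Between the fighting groups the Hox genes did not lean one way. Winners minus losers had a Hox median of 0.00, with 21 above 0 and 21 below, and 0 genes called, against 0% of all probe sets. In it 4 Hox genes had an unadjusted p under 0.05, against 4.14% of all probe sets, and the smallest adjusted p was 0.9997 in limma. Winners were below losers without overlap for hoxa1a and hoxb7a, against 2.64% of all probe sets, and above losers for 0, against 3.93%. For hoxb5a the log2 difference was -0.23 ± 0.55, an SE that leaves room for a difference in either direction.

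Winners minus mirror fighters had a Hox median of -0.08, with 17 of 42 above 0, and 0 called, against 0.00645% of all probe sets. Unadjusted p was under 0.05 for 8 Hox genes, against 16.8% of all probe sets, and the smallest adjusted p was 0.138 in limma. Winners were above mirror fighters without overlap for hoxb1a and hoxa2b, against 11% of all probe sets, and below them for hoxa4a, hoxa9b and hoxb9a, against 11.7%. Losers minus mirror fighters had a median of 0.05, with 22 of 42 above 0, and 0 called, against 0.174%. There 6 Hox genes had an unadjusted p under 0.05, against 17.7%, and the smallest adjusted p was 0.129 in limma. Losers were above mirror fighters for hoxa1a, hoxb1a and hoxd10a, against 10.3%, and below them for hoxa4a, hoxc4a, hoxa5a, hoxb5a and hoxc5a, against 14%. These last 5 genes are 11.9% of the Hox genes, under the share of all probe sets. All have paralog number 4 or 5, and they varied together from array to array, so they are not separate counts. The Hox medians of both comparisons were -0.60 and -0.57 when the level of the hybridization controls entered the model, a setting chosen after the data were seen in which that level can hardly be parted from the groups.

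Some Hox genes of neighbouring paralog number varied together from array to array. Likeness to hoxb5a was measured as Pearson's correlation of log2 intensity over the 12 arrays. This gene is the brightest, and the comparison was chosen after its values were seen. Of all 15501 other probe sets, that of hoxc5a was the most like hoxb5a, at r = 0.98 and Spearman's rho = 0.98. hoxb5b ranked 3 (r = 0.91), hoxa4a 4 (r = 0.89) and hoxb3a 9 (r = 0.86). hoxc4a (0.80), hoxc6a (0.79), hoxa5a (0.78) and hoxb6b (0.71) followed. Of these genes hoxa4a, hoxc6a, hoxa5a and hoxb6b have dim probe sets. Hence 8 of the 41 other Hox genes had r over 0.7 by their chosen probe sets (19.5%), against 0.793% of all probe sets. By these probe sets all 8 belonged to paralogs 3 to 6. These correlations share the same 12 arrays and their scaling, and carry no test.

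The genes most like hoxb5a lay in other clusters. hoxb5a is in the ba cluster, while hoxc5a is in ca, hoxb5b in bb and hoxa4a in aa, and of the 8 only hoxb3a shares its cluster. The median r with hoxb5a was 0.71 for the 15 other genes of paralogs 3 to 6 and -0.28 for the 5 of paralogs 1 and 2. It was 0.06 for the 21 of paralogs 7 to 13, the highest of which was hoxb8a at 0.65. These values depend on the chosen probe set. The further probe sets of hoxb8a had 0.73 and 0.22, and that of hoxb2a had 0.86. Among all 861 pairs of Hox genes the median r was 0.17. It was 0.37 for the 57 pairs with the same paralog number and 0.07 for the 127 pairs in the same cluster. For the 120 pairs within paralogs 3 to 6 it was 0.44, and for the 210 pairs within paralogs 7 to 13 it was 0.16. Pairs of dim probe sets in general had a median of 0.02, and pairs of brain-absent genes 0.11. The neighbour hoxb4a, between hoxb5a and hoxb3a, had r = 0.60 on a mean log2 intensity of 3.59.

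The likeness was about as large within groups. With each group's mean removed, hoxc5a was still the most like hoxb5a (r = 0.97), and hoxb5b had 0.94, hoxb3a 0.87 and hoxa4a 0.85. The lowest of the 8 genes was then hoxb6b at 0.68. Without winner array 2 and isolated array 2, the arrays farthest from the hoxb5a median, r was 0.98 for hoxc5a, 0.90 for hoxb5b, 0.82 for hoxa4a and 0.75 for hoxb3a. It was 0.77 for hoxc4a and for hoxa5a, but fell under 0.7 for hoxc6a and hoxb6b, to 0.63 in each. Of the variation of hoxb5a over the arrays, 59.16% lay within groups, and its SD within groups, 0.77 on the log2 scale, was at percentile 94.2 of all probe sets. hoxb5a and the 8 genes with r over 0.7 had a mean log2 deviation from their own means of -1.10 on winner array 2, -0.57 on isolated array 2 and -0.41 on loser array 2, and of 0.76 on mirror fighter array 1, 0.70 on winner array 3 and 0.66 on mirror fighter array 3. The means of the other 33 Hox genes lay between -0.26 and 0.30. Because the first set was picked for its correlation over these same arrays, its larger shared deviations follow from that choice. The 2 ranges are therefore a description and no separate evidence.

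**Figure D4:**
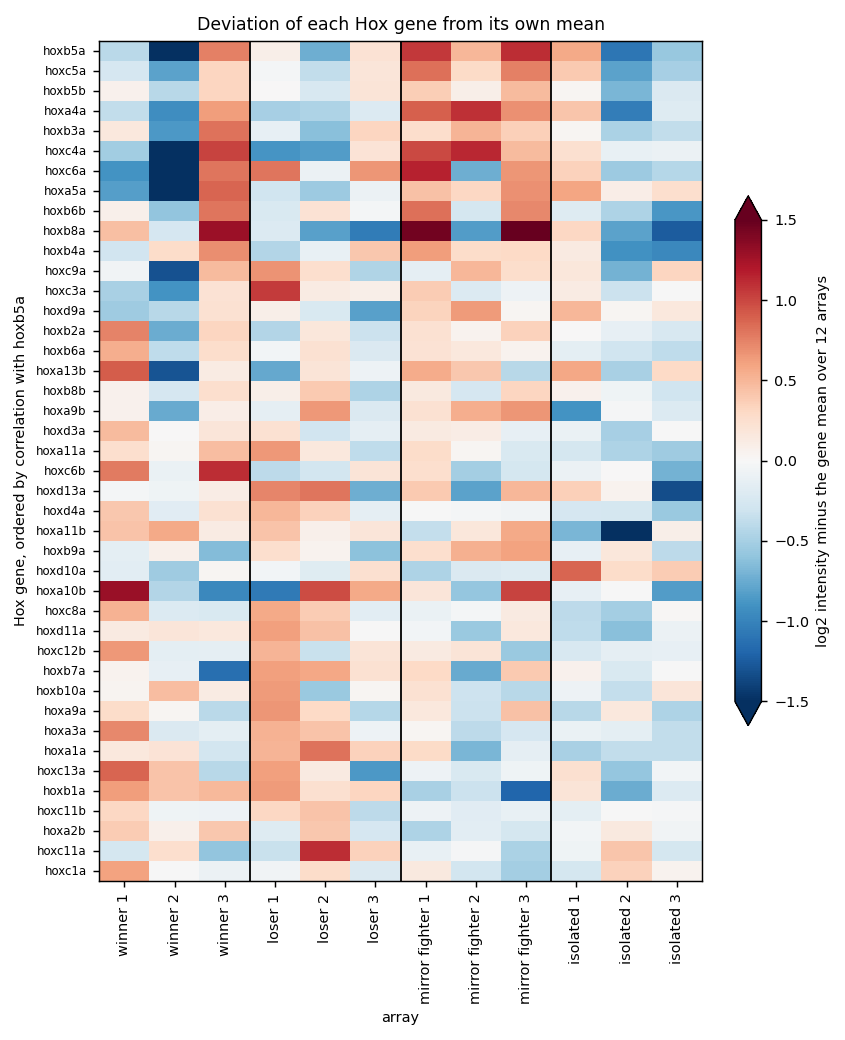
Log2 intensity of each Hox gene minus its own mean over the 12 arrays, with genes in order of correlation with hoxb5a and arrays by group. The top 9 rows are low together on winner array 2 and high together on winner array 3 and on mirror fighter arrays 1 and 3.

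**Figure D5:**
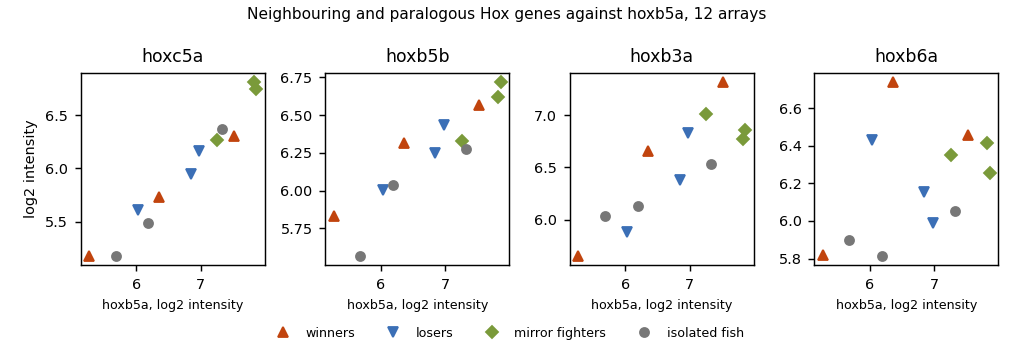
Log2 intensity of hoxc5a, hoxb5b, hoxb3a and hoxb6a against that of hoxb5a on 12 arrays, 1 point per array. The correlation over all 12 arrays is 0.98 for hoxc5a, 0.91 for hoxb5b, 0.86 for hoxb3a and 0.42 for hoxb6a.

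The summed markers of 2 of the 4 brain regions correlated with hoxb5a from array to array, in opposite directions. For each of 14 lists the summed intensity was correlated with hoxb5a over the 12 arrays. The 12 genes of hindbrain and spinal neurons gave r = 0.77 (rho = 0.80), or 0.86 with group means removed and 0.72 without the 2 farthest arrays. The 10 cerebellum genes gave r = -0.80 (rho = -0.72), or -0.77 and -0.59. The midbrain and boundary list gave -0.13 and the forebrain list 0.32. Over all 12 arrays the 12 lists other than hindbrain and cerebellum lay between -0.42, for the Pbx and Meis cofactors, and 0.39, for skin and cartilage. Without the 2 farthest arrays they lay between -0.53, for other homeobox genes, and 0.61, for skin and cartilage, with forebrain at 0.53. With group means removed the lowest were midbrain and boundary and the Hox induction and chromatin genes, at -0.54 each, and the highest was forebrain at 0.15. Single members were less alike than the sums. The median r of the members was 0.26 for hindbrain and spinal neurons, with 7 of 12 above 0, and 0.29 for skin and cartilage, with 12 of 16 above 0. It was -0.34 for cerebellum, -0.10 for midbrain and boundary, with 6 of 17 above 0, and 0.11 for forebrain, with 16 of 23 above 0. High single values were not confined to the hindbrain and spinal list, whose highest member had 0.67. On the midbrain and boundary list gbx1 had 0.84 and wnt1 0.67, and on the forebrain list dlx6a had 0.54. In a whole-brain extract more cells of a type and more RNA per cell cannot be told apart. Their part in the Hox results was not tested.

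The summed hindbrain and spinal list lay between 1023 and 1302 in winners, 1017 and 1085 in losers, 1282 and 1399 in mirror fighters, and 1083 and 1323 in isolated fish. Its members with the highest r with hoxb5a were slc18a3a, a vesicular acetylcholine transporter (0.67), tlx2 (0.60) and tph2, the serotonin-synthesis enzyme of raphe neurons (0.55). The probe set of tlx2 is dim, with a mean log2 intensity of 4.22. The 5 members with r below 0 were evx2 (-0.35), evx1 (-0.33), isl2a (-0.26), tlx3b (-0.19) and glra3 (-0.070). The summed cerebellum list lay between 12486 and 14746 in winners, 11756 and 13053 in losers, 11328 and 12989 in mirror fighters, and 12194 and 14660 in isolated fish. The 2 highest cerebellum sums were on winner array 2 and isolated array 2, the arrays with the lowest hoxb5a. Its members zic1, a granule cell transcription factor (r = -0.76), and aldoca, a Purkinje cell aldolase (r = -0.69), ran most strongly against hoxb5a. The 2 cerebellum members with r above 0 were pcp4a (0.30) and cbln1 (0.15). No member of either list was called in any comparison.

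The Hox pathway beside the clusters was examined from lists of its other genes. Of 13 Pbx, Meis and Pknox cofactors and related factors 10 were lit on all arrays, with a median log2 intensity of 7.88. None was called. The cofactor with the smallest p for any difference was pbx1a, with 720, 910 and 698 in winners, 1054, 973 and 829 in losers, 426, 343 and 653 in mirror fighters, and 391, 355 and 595 in isolated fish. Winners and losers lay above all mirror and isolated arrays, with log2 differences from isolated fish of 0.82 ± 0.26 (adjusted p = 0.153 in limma) and 1.12 ± 0.26 (adjusted p = 0.0797). The hybridization controls were divided in the same way between these pairs of groups, though among them winners averaged above losers.

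Of 29 genes for retinoic acid handling, Hox induction and Hox-silencing chromatin complexes, 12 were lit and 7 dim, with a median log2 intensity of 5.92, and none was called. cyp26a1, which breaks down retinoic acid, had log2 differences from isolated fish of -0.71 ± 0.17 in winners (adjusted p = 0.111 in limma), -0.74 ± 0.17 in losers (adjusted p = 0.0797) and 0.01 ± 0.17 in mirror fighters. rarga, a retinoic acid receptor, had 0.72 ± 0.22 in winners (adjusted p = 0.145) and 0.57 ± 0.22 in losers (adjusted p = 0.174). cbx2, a Polycomb subunit, had -0.90 ± 0.27 in winners (adjusted p = 0.148). Of 7 other homeobox genes related to the Hox class, 0 were lit and 0 called. Their median r with hoxb5a was -0.091, with 2 of 7 above 0. The highest was gbx1 at 0.84, expressed in hindbrain and spinal cord and also a member of the midbrain and boundary list. The lowest was cdx4 at -0.59.

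Region markers ahead of the hindbrain were compared in the same way. In the forebrain list otpb, a hypothalamic homeobox gene, fell in losers by 1.17 ± 0.16 against isolated fish (adjusted p = 0.0136 in limma) and was the only called gene of the region lists. It was also called in losers minus mirror fighters, at -1.25 ± 0.16 (adjusted p = 0.0182 in limma). All winner and loser arrays lay below all mirror and isolated arrays for otpb. The hybridization controls divided the arrays in the same way, and their part in the result was not tested. nkx2.1, of the same region, missed the threshold in losers minus isolated fish at -1.01 ± 0.19 (adjusted p = 0.0504 in limma). Of the midbrain and boundary list fgf8a had the smallest p, at -0.79 ± 0.18 in losers (adjusted p = 0.0789).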

How the data were processed

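The Affymetrix zebrafish arrays were labelled from 100 ng of total RNA with the maker's 3′ in vitro transcription kit, per the labels' protocols. The labels name 2 different extraction methods. The deposited table gives signal intensities on a linear scale, 1 for each probe set on each array, and how the authors summarised and normalized it is not given in the sources used here. The submitters' processing notes name Partek 6.6. All value columns were used.

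The log2 of each intensity was taken with no offset, 115 control probe sets were left out, and 15502 were tested with limma 3.58.1 in R 4.3.3. The model had 1 mean per group, 8 residual and 2.55 prior degrees of freedom, contrasts between groups and an F-test. All p-values are two-sided and adjusted over all probe sets. Probe sets with several symbols (135) or none (4572) named no gene. The model was tested on simulated data of the same size, with independent noise for each probe set and changes in winners only. That test does not cover probe sets that vary together or the division of the hybridization controls between groups.

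Hox genes were to be named with values per array if lit, or if among the 5 with the smallest F-test p. As none was lit, the 9 above the 25% limit on all arrays were named in their place, a choice made after the values were seen. Other lists could give every called gene and the 3 of smallest p, and genes named for their correlation with hoxb5a were chosen after their values were seen. The Hox members and all lists were chosen with earlier results of these data known. Same-numbered winner and loser arrays had correlated deviations (0.112, 0.111 and 0.233, each over 0.1). Elsewhere single values reached 0.211, for mirror fighter and isolated arrays 3, and 0.184, for winner and isolated arrays 1. Whether the replicate numbers pair any groups is therefore not settled. The replicate block, used as an alternative, covered all 4 groups. Gene spans were compared in the RefSeq table of the assembly GRCz12tu, and no coordinates are given because the labels name no build. Figures were drawn with matplotlib.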

Additional observations from a re-analysis of the deposited data

How the results depend on the processing

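With the replicate number as a block in all 4 groups, 0 Hox genes were called in each of the 6 comparisons and in the F-test, as without it. Over all probe sets the replicate block moved the calls of losers minus mirror fighters to 14, against 27 without it, and those of winners minus mirror fighters to 0, against 1. It changed no other count by over 1.5 times. For winners minus losers, 0 probe sets were called with or without the block.

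The count of 0 Hox genes called held under all settings tried. The smallest adjusted p of a Hox gene under any was 0.0533, for losers minus isolated fish without the dimmest 25% of probe sets. Leaving out 1 array at a time gave 0 Hox calls throughout, and a smallest adjusted p of 0.0638, for winners minus mirror fighters without winner array 3. The 5 genes named for the F-test had adjusted p between 0.102 and 0.905 over the alternatives. The number of lit Hox genes was 0 by the array median, 9 above the 25% limit on all arrays and 4 above the EGFP control.

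Hox medians kept their sign against isolated fish under every scaling. With an array left out they lay between 0.07 and 0.39 for winners, 0.18 and 0.34 for losers, and 0.19 and 0.41 for mirror fighters. With the level of the hybridization controls in the model they turned to -0.17 for winners and -0.20 for losers, and the calls over all probe sets became 0 in every comparison. That level can hardly be parted from winners and losers, so this setting cannot decide whether their differences remain. Calls over all probe sets depended on the settings. With 32 added before log2 they were 65 for winners and 317 for losers, each minus isolated fish, and 31 and 53 minus mirror fighters. Without the dimmest 25% they were 59, 271, 19 and 71, and with trend and robust moderation losers gave 162 and 44, and winners minus mirror fighters 30. With only the 2 groups compared in the fit they were 3, 15, 0 and 0. The F-test gave 172, 164 and 117 with the offset, the filter and the moderation. Winners minus mirror fighters gave 4 with quantile normalization, and 3 both with centring on the array median and with probe sets averaged. With an array left out, calls ranged from 15 to 39 for winners and from 21 to 122 for losers minus isolated fish, from 0 to 5 for winners and from 0 to 27 for losers minus mirror fighters, and from 17 to 48 in the F-test. The cause of these shifts was not tested. Signal near background limits what can be seen of the 27 dim Hox genes.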

Other observations

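Probe sets outside the Hox clusters that followed hoxb5a over the 12 arrays were looked for after the values were seen, and are given as a description without a test. The gene si:ch211-140m22.7 ranked 2 of 15501 (r = 0.93, or 0.94 with group means removed). calb2b, which encodes a calretinin-like calcium-binding protein of neurons, ranked 5 (r = 0.89). It had intensities of 467, 479 and 765 in winners, 547, 506 and 587 in losers, 803, 692 and 996 in mirror fighters, and 678, 517 and 509 in isolated fish. glrba, the beta subunit of the glycine receptor that carries fast inhibition in hindbrain and spinal cord, ranked 6 (r = 0.88). Its intensities were 341, 308 and 458 in winners, 323, 306 and 396 in losers, 421, 397 and 441 in mirror fighters, and 371, 320.3 and 307 in isolated fish. Both genes lay well above the array medians, and on winner array 2 and loser array 2 glrba was near its lowest, as hoxb5a was. The alpha subunits glra1, glra3 and glra4a had r of 0.22, -0.070 and 0.47. Next in rank, among named genes outside the clusters that were not dim, came myg1 (0.86), nt5c3a (0.85), uqcrc1 (0.85) and faub (0.85). After them came pccb, timm17a and rgl3a (0.84 each). Neither these genes nor calb2b and glrba were on the hindbrain and spinal list. From the lowest to the highest array the genes named here spanned between 1.18-fold, for uqcrc1, and 2.13-fold, for calb2b. hoxb5a spanned 6.04-fold. The ranks depended on scaling, and with quantile normalization they ran from 2 for glrba to 98 for uqcrc1.

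A second probe set of hoxb2a, on a mean log2 intensity of 4.18, had r = 0.86 with hoxb5a, against 0.46 for the brighter one that stood for the gene. hoxd10a had r = 0.06 with hoxb5a over the 12 arrays and 0.85 with group means removed, since it was high in all isolated fish but followed hoxb5a within groups. The next largest increases between these measures were those of hoxb1a, from -0.28 to 0.34, and hoxc6b, from 0.20 to 0.64.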
